A study of Mus musculus with 9 samples.

Results

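The replication-dependent histone genes of the mouse lie packed in a few clusters, and DPPA4 peaks were counted here over the Hist1 and Hist2 clusters in 3 cell lines. The intervals examined, in mm9, were chr13:21650000-22200000 (called Hist1 proximal here), chr13:23500000-23950000 (Hist1 distal) and chr3:96000000-96110000 (Hist2), 1.11 Mb in all. Every peak with at least 1 bp in an interval was a member. The members numbered 217 of the 229345 peaks in the 6 lists, and no peak crossed the edge of an interval. The clusters were selected on measured values, namely the peak counts of the 3 lines in these same lists. Counts, shares and densities of peaks by line are therefore given as a description, with no test. The other 4 Mb of chr13:20000000-25000000 served as the neighbourhood for comparison and held 208 peaks.

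DPPA4 was precipitated by ChIP-seq from E14 mouse embryonic stem cells grown feeder-free in 2i medium with serum, from P19 embryonic carcinoma cells, and from 3T3 fibroblasts in which Dppa4 was expressed ectopically. P19 and 3T3 cells were grown in DMEM with serum. Each line gave 2 immunoprecipitated libraries, called replicates 1 and 2, and the input libraries were not used here. Separate cultures for the replicates are not stated in the labels, so their spread may be technical. Neither a 3T3 library without Dppa4 nor another control precipitation was analysed here, so the lists show where the authors' caller found enrichment, and how much of it needs DPPA4 was not tested. The lists held 15462 and 17540 peaks in 3T3, 40011 and 51196 in P19, and 61693 and 43443 in E14. They hold no read counts, so the depth behind them is unknown.

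Replication-dependent histone genes encode the core histones H2A, H2B, H3 and H4 and the linker histone H1 that package newly copied DNA. They are transcribed mainly in S phase, gathered in nuclear foci called histone locus bodies where the coactivator NPAT works, and their mRNAs end in a stem-loop instead of a poly(A) tail. DPPA4 is a small nuclear protein with a SAP domain, known from pluripotent cells, where it pairs with its relative DPPA2.

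Gene annotation was at hand only for GRCm38.p6 and not for mm9, so peaks were not assigned to genes and only names and gene order were read from it. It lists 64 protein-coding histone genes in these clusters, 23 in the block taken as proximal, 31 in the distal block and 10 in Hist2. By class they comprise 6 H1, 17 H2A, 17 H2B, 12 H3 and 12 H4 genes. Within the proximal block the histone genes are interspersed with 31 tRNA genes and with the protein-coding genes Zfp184, Pom121l2 and Prss16. The distal block also holds Hfe, a regulator of iron uptake, Trim38, and the solute carriers Slc17a1, Slc17a2, Slc17a3 and Slc17a4. Of the 147 genes between the blocks, 75 are vomeronasal receptor genes or pseudogenes of the Vmn1r family. Whether each gene lies inside an mm9 interval was not determined.

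Promoters of histone genes are shown for the genes that the clusters are named after. A RefSeq promoter (GRCm38.p6) was found for 59 of the 64 histone genes, giving 60 promoters. The 150 bases before the start of 1 gene of each class are printed 5′ to 3′ on the gene's strand, with 3 motifs in capitals wherever they stand on either strand. The TATA box was searched as the letters TATAAA, and the CCAAT box as the letters of its name. The octamer, read in H2B promoters by POU factors such as OCT1, was searched as ATTTGCAT.
H1f1: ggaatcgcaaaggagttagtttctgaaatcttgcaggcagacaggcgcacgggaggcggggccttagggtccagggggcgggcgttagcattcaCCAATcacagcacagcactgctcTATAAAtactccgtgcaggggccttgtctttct
H2ac1: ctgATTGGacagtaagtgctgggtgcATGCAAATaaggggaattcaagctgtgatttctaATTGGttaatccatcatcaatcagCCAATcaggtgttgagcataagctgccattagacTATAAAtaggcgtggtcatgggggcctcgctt
H2bc1: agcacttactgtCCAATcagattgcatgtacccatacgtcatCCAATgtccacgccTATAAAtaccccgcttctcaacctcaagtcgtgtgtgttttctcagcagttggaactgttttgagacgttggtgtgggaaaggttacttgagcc
H3c10: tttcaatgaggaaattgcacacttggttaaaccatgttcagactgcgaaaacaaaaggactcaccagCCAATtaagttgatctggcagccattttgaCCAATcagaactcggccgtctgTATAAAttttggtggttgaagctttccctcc
H4c1: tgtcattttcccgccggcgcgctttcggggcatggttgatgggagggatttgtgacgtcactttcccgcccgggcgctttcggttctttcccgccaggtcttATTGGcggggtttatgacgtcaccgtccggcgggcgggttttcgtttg
H1f1 encodes a linker histone, H3c10 a core H3 and H4c1 a core H4, while H2ac1 and H2bc1 encode testis variants of H2A and H2B. Both variant genes stand at the end of the distal block and may lie outside the mm9 interval. The TATAAA of H2bc1 began 94 bases before the start, against 31 to 33 bases in H1f1, H2ac1 and H3c10. A TATA box was present in 23 of the 60 histone promoters (38.3%), against 7.57% of 32851 promoters of the same length. A CCAAT box was present in 50 of 60 (83.3%), against 24.5%, and in every H1, H2A and H2B promoter but in 3 of 11 H4 promoters. The octamer was present in 10 of 60 (16.7%), against 0.998%, and 6 of those were among the 16 H2B promoters. The median GC content was 46.7%, against 54% for all promoters. Each match describes letters only, and no peak was placed on these sequences.

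In 3T3 cells the histone clusters carried on average more DPPA4 peaks than in the pluripotent lines, although the 3T3 lists were much shorter. The E14 libraries held 39 and 31 peaks in the clusters, the P19 libraries 22 and 32, and the 3T3 libraries 37 and 56. The 3T3 counts overlapped those of E14 and lay above both P19 libraries. Line means were 46.5 ± 13.4 in 3T3, 27 ± 7.07 in P19, and 35 ± 5.66 in E14 (SD, n = 2 each), so the 3T3 mean was 1.33-fold that of E14 and 1.72-fold that of P19. The whole 3T3 lists, by contrast, were on average 0.314-fold as long as the E14 lists and 0.362-fold as long as the P19 lists. With peaks closer than 500 bp joined, the clusters held 31 and 41 peaks in 3T3, 20 and 29 in P19, and 35 and 30 in E14.

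As a share of its list, the 3T3 line therefore stood apart at the histone clusters. The clusters took 0.0632% and 0.0714% of the E14 peaks, 0.0550% and 0.0625% of the P19 peaks, and 0.239% and 0.319% of the 3T3 peaks. The lowest 3T3 share, 0.239% (Wilson 95% interval 0.174 to 0.330%, counting error only), was above the highest in the other lines, 0.0714% (0.0503 to 0.101%). The mean 3T3 share was 4.15-fold that of E14, with pairs of libraries between 3.35 and 5.05, and 4.75-fold that of P19, with pairs between 3.83 and 5.81. In the rest of the chromosome 13 bin the order was the other way, with a 3T3 share 0.736-fold that of E14 and 0.650-fold that of P19. There the lists held 8 and 14 peaks in 3T3, 38 and 55 in P19, and 52 and 41 in E14. The 3T3 peaks of the bin thus lay mostly in the Hist1 intervals, and the 4 Mb around them held few.

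**Figure D1:**
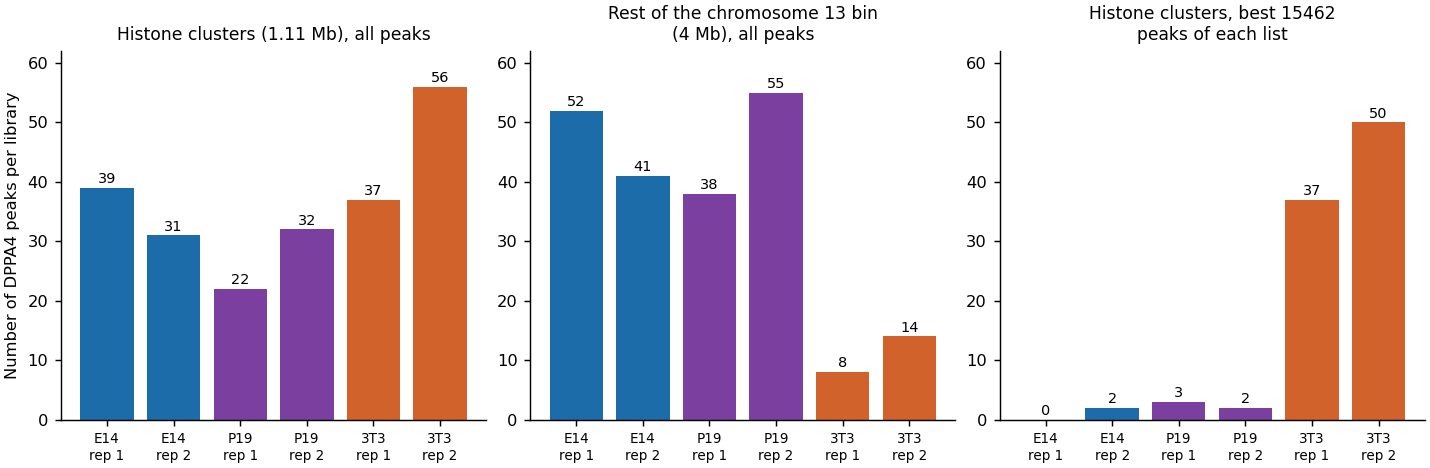
Number of DPPA4 peaks per library (y axis) in the histone clusters, in the other 4 Mb of the chromosome 13 bin, and in the clusters when every list is limited to its 15462 best peaks. Bars are single libraries. The 3T3 bars stand at 37 and 56 in the clusters but at 8 and 14 around them, and with lists of equal length they stand at 37 and 50 against 0 to 3 in the other lines. That limit leaves the list of 3T3 replicate 1 whole and shortens those of E14 and P19 most.

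Each of the 3 clusters held peaks of every library. In Hist1 proximal the counts were 16 and 23 in 3T3, 12 and 14 in P19, and 17 and 14 in E14. In Hist1 distal they were 12 and 23 in 3T3, 4 and 10 in P19, and 14 and 13 in E14, and P19 replicate 1 had its fewest peaks there. In the short Hist2 interval they were 9 and 10 in 3T3, 6 and 8 in P19, and 8 and 4 in E14. The 3T3 share of the list was 3.92-fold that of E14 in Hist1 proximal, 3.97-fold in Hist1 distal and 5.20-fold in Hist2. Against P19 the folds were 4.09, 7.07 and 3.76 in the same order. The widest range over pairs of libraries was that of Hist1 distal against P19, from 3.97 to 13.1.

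The 3 clusters together were denser in peaks than the rest of the chromosome 13 bin in every line, and most so in 3T3. Hist2 lies on chromosome 3, so the bin is not its own neighbourhood. E14 had 31.5 ± 5.10 peaks per Mb in the clusters and 11.6 ± 1.94 in the rest of the bin (SD, n = 2). P19 had 24.3 ± 6.37 and 11.6 ± 3.01, and 3T3 had 41.9 ± 12.1 and 2.75 ± 1.06. Within a library the ratio of the densities averaged 15.5 ± 1.59 in 3T3, 2.09 ± 0.00732 in P19, and 2.71 ± 0.0155 in E14. Hist2 was the densest of the 3 clusters in the mean of each line, at 86.4 peaks per Mb in 3T3, 63.6 in P19, and 54.5 in E14. For the Hist1 intervals alone the ratio was 13.6 in 3T3, 1.72 in P19, and 2.51 in E14, and in P19 replicate 1 Hist1 distal was less dense than the rest of the bin (0.936-fold). The 1.3 Mb between the 2 Hist1 intervals, where the gene table places the Vmn1r genes, held 0 and 2 peaks in 3T3, 9 and 17 in P19, and 14 and 9 in E14. Without that stretch the ratio fell to 11.3 in 3T3, 2.43 in E14 and 1.95 in P19.

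With shortened lists the lines stood further apart. Each peak's score was turned into its percentile in its own list (100 is the strongest), since the scale of the authors' score is not named. When each list was limited to its 15462 best peaks, the length of the shortest, the clusters kept 37 and 50 peaks in 3T3, 3 and 2 in P19, and 0 and 2 in E14. This limit left the list of 3T3 replicate 1 whole and shortened the E14 and P19 lists most. Cluster peaks ranked low in every list, as given below, so the limit itself takes them mainly from E14 and P19. With the best 50% of each list, the same proportion in every line, the folds of the 3T3 share were 13.3 over E14 and 7.09 over P19. At equal length the folds were 43.5 over E14 and 17.4 over P19. The first rests on 2 E14 peaks in all. Leaving out E14 replicate 1 gave 21.8, and leaving out the other E14 library left no E14 peak to compare with. In these limited lists the clusters were less dense than the rest of the bin in E14 (0.190-fold) and in P19 (0.572-fold), and 15.3-fold denser in 3T3. In E14 and P19 the higher density of the clusters was thus seen in the full lists and not among the 15462 best peaks.

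Peaks in the histone clusters ranked low in every list. Their median percentiles were 35.8 and 42.5 in the 3T3 libraries, 35.5 and 36.9 in P19, and 29.5 and 26.7 in E14. In the rest of the bin the medians were 50.2 and 47.1 in 3T3, 53.5 and 43.1 in P19, and 67.8 and 63.6 in E14. The clusters were lower in 6 of 6 libraries, by a mean of -19.8 percentile points (SD 14.7, n = 6). An exact two-sided sign-flip permutation test over the libraries gave p = 0.03125, the smallest that 6 libraries can give, and 0.03125 after Benjamini-Hochberg adjustment over 2 tests (percentile and width). The intervals and both tests were chosen with earlier results of these data known, so their p-values are descriptive. The 2 libraries of a line are not independent of each other, and 3 line means alone could not go below an exact p of 0.25. The mean differences were -9.51 in 3T3, -12.1 in P19, and -37.6 in E14, and the difference between the lines was not tested. In Hist2 alone the difference was -8.75, lower in 4 of 6 libraries, with an exact sign-flip p of 0.3125. Hist2 ranked above the rest of the bin in 3T3 replicate 2 (by 7.43) and in P19 replicate 2 (by 4.64). Its median percentiles were 45.7 and 54.6 in 3T3, 46.9 and 47.8 in P19, and 34.0 and 43.9 in E14. With lists of equal length, ranked anew and without E14 replicate 1, which had no cluster peak left, the difference was -7.82 with an exact p of 0.4375, where 5 libraries allow no p under 0.0625.

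Few peaks of the clusters were among the strongest of their lists. Peaks in the top 10% of their list numbered 0 and 0 in 3T3, 1 and 1 in P19, and 0 and 0 in E14. In the rest of the bin they numbered 2 and 2 in 3T3, 4 and 6 in P19, and 6 and 3 in E14. Above the median of the list lay 13 of 37 and 24 of 56 cluster peaks in 3T3, 7 of 22 and 7 of 32 in P19, and 6 of 39 and 3 of 31 in E14. These are 35.1% and 42.9% in 3T3, 31.8% and 21.9% in P19, and 15.4% and 9.68% in E14. In the rest of the bin the same shares were 50% and 42.9% in 3T3, 55.3% and 43.6% in P19, and 61.5% and 65.9% in E14. The clusters thus had the lower share in 5 libraries and the same share in 3T3 replicate 2.

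**Figure D2:**
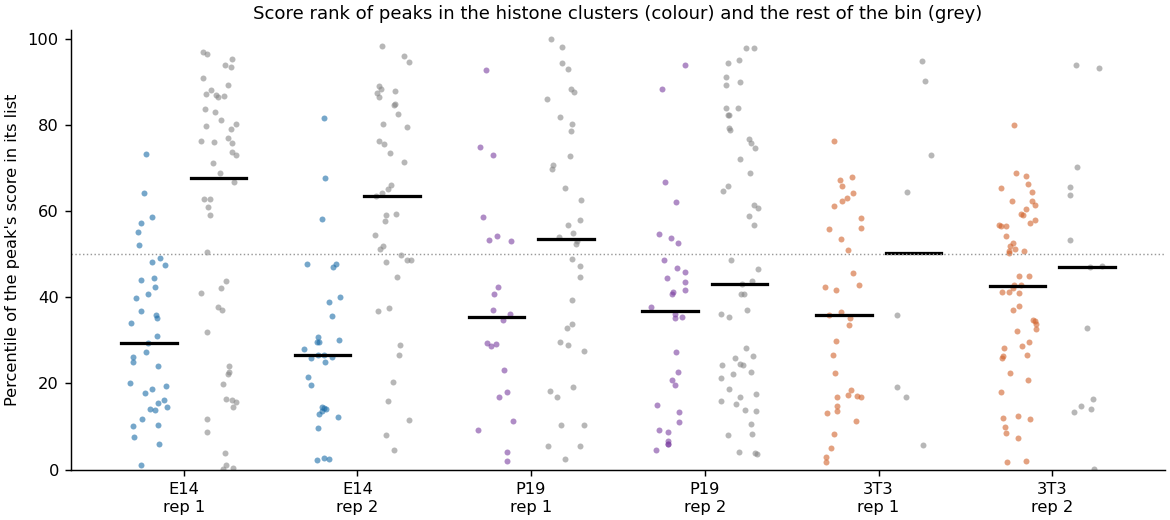
Percentile of each peak's score within its own list (y axis, 100 is the strongest) for peaks in the histone clusters (colour) and in the rest of the chromosome 13 bin (grey), by library. Points are peaks, black bars are medians, and the dotted line is the median of a list. The cluster medians lie between 26.7 and 42.5, below the grey median in each of the 6 libraries.

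Peaks in the clusters were also narrower than those nearby. Median widths in the clusters were 316 and 666 bp in 3T3, 313 and 531 bp in E14, and 348 and 399 bp in P19. In the rest of the bin they were 371 and 851 bp in 3T3, 482 and 791 bp in E14, and 473 and 479 bp in P19. The log2 ratio of the medians averaged -0.42 (SD 0.16, n = 6), a 0.75-fold width, and was below 0 in 6 of 6 libraries (exact two-sided sign-flip permutation p = 0.03125, also 0.03125 adjusted over the 2 tests). Width and score come from the same peaks, so the 2 tests are not independent. Whether width differed apart from score was not tested. Replicate 2 had the wider peaks in the clusters in every line, as it did over the whole lists. The medians of the whole lists were 400 and 872 bp in 3T3, 411 and 772 bp in E14, and 453 and 540 bp in P19. Among the best 50% of each list the log2 ratio was -0.27, with an exact p of 0.125, and for Hist2 alone it was -0.12, with an exact p of 0.3125. With lists of equal length, again without E14 replicate 1, it turned to 0.064, with an exact p of 0.9375.

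Peaks seen in both libraries of a line were joined into regions, and overlapping regions of different lines were merged. The clusters held 43 such regions, and 31 of them (72.1%, Wilson 95% interval 57.3 to 83.3%) were held by 3T3. Over the genome 3T3 held 24.2% of 45616 regions. E14 held 17 of the 43 (39.5%), against 80.9% over the genome, and P19 held 15 (34.9%), against 70.4%. Regions held by 3T3 alone numbered 19 (44.2%, interval 30.4 to 58.9%), where the genome had 4.37%. Regions shared by E14 and P19 without 3T3, the commonest kind in the genome at 40.2%, numbered 4 (9.30%). In the rest of the bin 3T3 held 8 of 44 regions and 1 of them alone, E14 held 36 and P19 held 35, while 21 were shared by E14 and P19 without 3T3. These shares rest on the same peaks by which the clusters were selected, and nothing further is read from them.

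The 3T3-only regions lay in both Hist1 intervals, 9 in each, with 1 in Hist2. Their number moved when a library was left out, to 11 of 48 regions (22.9%) without E14 replicate 1 and to 37 of 61 (60.7%) without 3T3 replicate 1. A line left with 1 library kept every peak of that library as a region. These runs thus also loosen the definition of a region for that line, and the moves are not replicate spread alone. Over the genome the share of 3T3 alone moved with them, to 2.88% and 9.09%. The regions held by 3T3 stayed a majority in each of the 6 leave-out runs, from 57.1% (without E14 replicate 2) to 86.9% (without 3T3 replicate 1), beside 17.3% and 35.7% over the genome in those runs. In Hist2 all 7 regions were held by 3T3, 5 by P19 and 4 by E14. Along Hist1 the 3T3 regions came closer together than those of the other lines. The median gap between neighbouring regions was 21.4 kb in Hist1 proximal and 12.7 kb in Hist1 distal in 3T3, 57.8 and 38.0 kb in E14, and 55.7 and 95.2 kb in P19. These gaps restate the numbers of regions, which were 14 and 10 in 3T3, 7 and 6 in E14, and 7 and 3 in P19. The P19 value in Hist1 distal thus rests on 3 regions.

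Being held by 3T3 alone did not mean that the other lines had no peak. Of the 19 such regions, 16 (84.2%, Wilson 95% interval 62.4 to 94.5%) overlapped a peak in at least 1 E14 or P19 library, compared with 62.1% of the 1992 regions of this kind in the genome. E14 replicate 1 had a peak at 6 of the 19, E14 replicate 2 at 8, P19 replicate 1 at 1 and P19 replicate 2 at 6. All of these peaks lay below the median of their lists, with median percentiles of 26.1, 22.3, 9.29 and 9.91 in that order. The 3T3 libraries had median percentiles of 35.2 and 51.9 at the 19 regions. The regions were kept for having a peak in both 3T3 libraries and no reproducible region in the other lines. That filter favours weak E14 and P19 peaks, so the order of the lines there is no result. The 3 regions without any E14 or P19 peak, singled out after their values were seen, were chr13:21924913-21925543, chr13:22142528-22143368 and chr13:23653662-23654326.

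**Figure D3:**
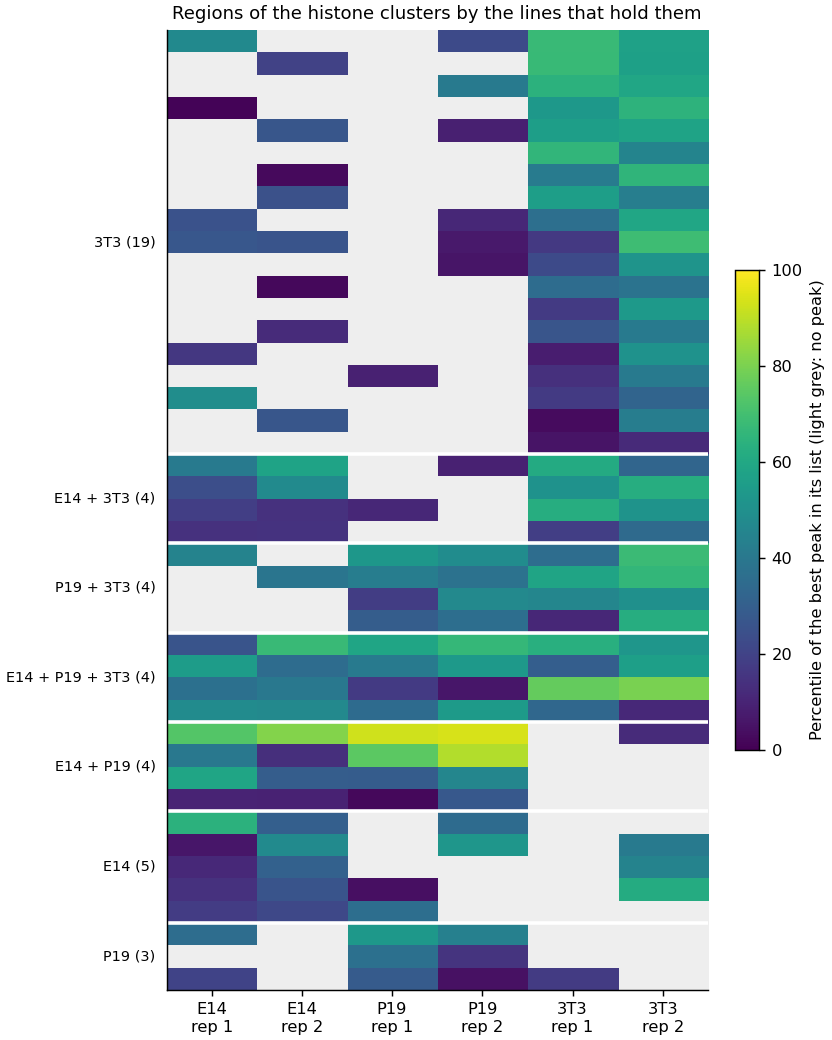
Percentile of the best peak (colour) of each library (columns) in the 43 reproducible regions of the histone clusters (rows), grouped by the lines that hold them, with the number of regions in parentheses. Light grey marks libraries with no peak. The 19 regions of 3T3 alone hold scattered E14 or P19 peaks, all below percentile 50, and the strongest row belongs to a region of E14 and P19.

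The strongest regions held by 3T3 alone were spread over the 3 clusters. At chr3:96042359-96043057 in Hist2 the 3T3 peaks scored 161 and 193 (percentiles 67.8 and 57.3), with single peaks in E14 replicate 1 (47.5) and P19 replicate 2 (22.6). At chr13:23625662-23626442 in Hist1 distal the 3T3 percentiles were 67.3 and 56.8, with 1 weak peak in E14 replicate 2 (19.7). At chr13:21902243-21903055 in Hist1 proximal they were 64.2 and 59.3, with 1 peak in P19 replicate 2 (40.7). These 3 were picked for their 3T3 percentiles, so the order of the lines there is no result. The region chr13:21924913-21925543 held the best Hist1 proximal peak of 3T3 replicate 1, at percentile 65.8, and its replicate 2 peak lay at 45.0.

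The region at which 3T3 was strongest was nevertheless a shared one. At chr3:96050147-96051523 in Hist2 the 3T3 peaks scored 210 and 430 (percentiles 76.3 and 79.9), the E14 peaks 87.8 and 100.3 (36.9 and 40.0) and the P19 peaks 62.6 and 54.1 (16.9 and 5.96). The 3T3 percentiles lay above all the others, and those of P19 lay below all others. This region was picked for its 3T3 percentiles, so the place of 3T3 in that order is no result. In the same cluster, chr3:96023489-96025101 was also held by all 3 lines, with percentiles of 63.0 and 52.6 in 3T3, 58.7 and 66.7 in P19, and 26.2 and 67.8 in E14, where the lines overlapped. The lines overlapped too at chr3:96043571-96044572, with 29.9 and 56.5 in 3T3, 40.7 and 53.7 in P19, and 55.1 and 35.5 in E14. The only such region in Hist1, chr13:22097740-22098314, had 33.5 and 11.7 in 3T3, 34.8 and 54.6 in P19, and 48.1 and 47.0 in E14, so that 3T3 was lowest there.

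Hist1 proximal also held the opposite pattern. The strongest peaks of the clusters in E14 and P19 lay at chr13:22072914-22074149, with scores of 279 and 369 in E14 (percentiles 73.3 and 81.6) and 1680 and 2121 in P19 (92.7 and 93.9). There 3T3 replicate 1 had no peak and 3T3 replicate 2 a weak one (score 60.9, percentile 12.4). A second region, chr13:21904809-21906360, reached percentiles of 74.9 and 88.4 in P19 and 39.9 and 13.6 in E14, with no 3T3 peak. It was the next region along the chromosome after the 3T3-only region chr13:21902243-21903055. The third, chr13:23736540-23737051 in Hist1 distal, had 58.7 and 29.6 in E14, 29.2 and 45.8 in P19, and no 3T3 peak. The fourth region of E14 and P19, chr13:21727380-21727833, was weak, with a mean percentile of 12.3 and no 3T3 peak. These regions were grouped by the lack of a reproducible 3T3 region, so weak or missing 3T3 peaks there are no result.

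Of the 8 regions that 3T3 shared with a single other line, the highest ranked were as follows. With E14, they were chr13:23775084-23776759 (E14 40.7 and 58.1, 3T3 61.2 and 32.6), chr3:96072455-96073152 (E14 24.1 and 47.8, 3T3 51.0 and 62.4) and chr13:21808121-21808982 (E14 18.7 and 14.1, 3T3 62.4 and 51.3). With P19, they were chr3:96049027-96050028 (P19 53.0 and 48.7, 3T3 35.8 and 68.1), chr13:21813219-21813811 (P19 42.5 and 37.8, 3T3 58.3 and 66.4) and chr3:96000734-96001427 (P19 18.0 and 46.9, 3T3 45.7 and 50.3). The 3T3 percentiles lay above both of the partner line in 3 of the 6, namely chr3:96072455-96073152, chr13:21808121-21808982 and chr13:21813219-21813811. Percentiles are ranks within lists of unlike length. By score the lines overlapped at the first of these, with 121 in E14 replicate 2 and 105 in 3T3 replicate 1. At the other regions just named the 3T3 scores were also above both of the partner line. The other 2 of the 8 ranked lower, with mean percentiles over their lines' libraries of 20.5 at chr13:22036900-22037664 and 34.8 at chr13:22126819-22127554.

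Regions of E14 alone numbered 5 (11.6%, Wilson 95% interval 5.07 to 24.5%), against 22% of the genome, and those of P19 alone 3 (6.98%, interval 2.40 to 18.6%), against 13.7%. Both genome shares lay inside these intervals. The best of the 5 in E14 was chr13:23870254-23871355, at percentiles of 64.1 and 30.1, with a P19 replicate 2 peak at 35.1 and none in 3T3. At chr13:23802154-23802684 (E14 6.02 and 47.8) and chr13:23663203-23663724 (E14 11.7 and 30.9) 3T3 replicate 2 had a peak too, at 41.2 and 44.9. The best of the 3 in P19 was chr13:23545136-23545635, at 53.3 and 43.5, with E14 replicate 1 at 35.9. The others were chr13:22124329-22124631 (37.0 and 15.1), where no other line had a peak, and chr13:23634765-23635224 (28.7 and 4.48), which E14 replicate 1 and 3T3 replicate 1 also marked.

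**Figure D4:**
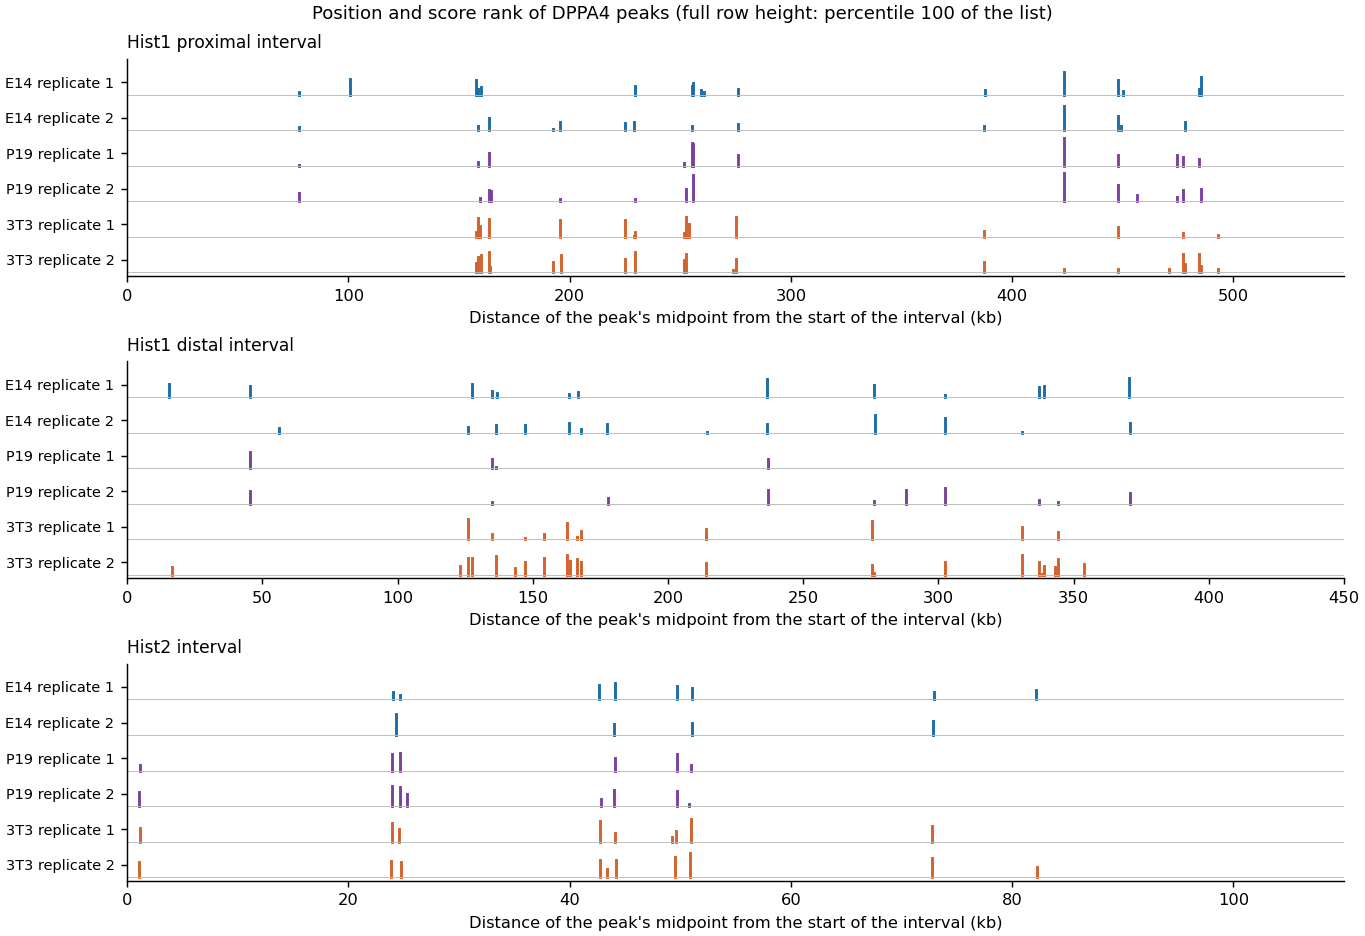
Position of every member peak by library (rows) along the Hist1 proximal, Hist1 distal and Hist2 intervals, as distance in kb from the start of the interval (x axis), with the height of a line giving the peak's percentile in its list. The 3T3 replicate 2 row is the fullest in both Hist1 intervals, with 23 peaks in each, and the tall lines of E14 and P19 about 424 kb into Hist1 proximal have only a short 3T3 replicate 2 line beside them.

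Windows of 50 kb gave the same peaks at a coarser scale. Of the 18 windows inside the clusters with a peak in any library, 2 had more peaks in both 3T3 libraries than in every E14 and P19 library. That share was 11.1%, against 2.38% in the rest of the bin (1 of 42) and 0.598% of 30758 windows of the genome. The first of the 2 cluster windows, chr13:21800001-21850000, held 5 and 7 peaks in 3T3, 2 and 4 in P19, and 3 and 4 in E14. The second, chr13:23650001-23700000, held 4 and 5 in 3T3, 0 and 1 in P19, and 3 and 3 in E14. In 1 of the 18 windows 3T3 had fewer peaks than all other libraries, which over the genome was so in 36.7%, and in the rest of the bin in 14 of 42. Most windows of the clusters thus showed counts that overlapped between the lines.

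The borders of the Hist1 intervals ran through stretches with few peaks. In Hist1 proximal the first member began 77.4 kb inside, and the nearest peak outside, in E14 replicate 1, lay 6.79 kb beyond the far border. In Hist1 distal the first member began 15.3 kb inside and the nearest outside peak, in E14 replicate 1, lay 8.18 kb beyond. Hist2 was tighter. Its first member, a 3T3 replicate 2 peak, began 0.734 kb inside, and an E14 replicate 2 peak at percentile 1.77 ended 1.54 kb before the interval.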

How the data were processed

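DPPA4 ChIP-seq peak lists of 6 libraries (2 each of E14, P19 and 3T3 cells) were analysed. Per the labels' protocols, nuclei were sonicated and the libraries prepared with Nextera reagents. The build is mm9, and BWA 0.7.13-r1126, SAMtools 1.3, bcl2fastq 1.8 and CASAVA 1.8 were used, per the submitters' processing notes. Peaks in the deposited lists carry names starting with MACS, a peak caller, while the sources used here give neither the caller's version nor its threshold nor its use of the inputs. There is 1 list per library. Each deposited list gives a score per peak, on a scale that is not named, with 50 as the lowest value, so scores were ranked within a list. The score is the authors' own value.

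Samples were grouped by line and replicate number from their titles. Peaks overlapped when they shared at least 1 bp. Overlapping peaks of both libraries were joined into a region of that line, and regions of the lines were merged into 7 combinations. The intervals, tests and regions were chosen with earlier results of these data known. Regions named were all those held by 3 lines (up to 10) and, in each other combination, up to 3 ranked by mean percentile in the libraries of those lines, together with the best peak of each cluster in each library. Median percentile and log2 median width were compared with the rest of the bin by an exact sign-flip permutation test over libraries. Wilson 95% intervals cover counting error only. With 2 libraries a line, no exact two-sided p between lines can go under 0.333. Alternatives were stricter membership, overlap and lists, other neighbourhoods, single clusters, merged close peaks, each library left out in turn, and a replicate block. The 50 kb windows, the counts by rank, the leave-out folds of equal lists and the region shares under other settings were added after seeing the data. The software was SciPy 1.17.1, pandas 2.3.3, NumPy 2.4.6, Matplotlib 3.10.9 and Python 3.11.15. The overlap code was tested on simulated data.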

Additional observations from a re-analysis of the deposited data

How the results depend on the processing

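Leaving out each library kept the 3T3 share between 3.56 and 4.74 times that of E14 and between 4.07 and 5.43 times that of P19. The labels give the replicate numbers no shared origin. With a replicate block over same-numbered libraries the folds were 4.12 and 4.72. With peaks closer than 500 bp joined they were lower, at 3.56 and 4.15. With the best 50% of each list they were 13.3 and 7.09. With lists of equal length, which leave 3T3 replicate 1 whole, they were 43.5 (21.8 without E14 replicate 1) and 17.4.

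The ratio of peak density, clusters over the rest of the bin, ranged without a library from 2.70 to 2.72 in E14, 2.09 to 2.10 in P19 and 14.4 to 16.7 in 3T3. It turned below 1 in E14 with the best 50% of each list (0.538) and with equal lists (0.190), and in P19 with equal lists (0.572). With the best 50% it was 1.13 in P19 and 13.1 in 3T3. Without the stretch between the Hist1 intervals it was 2.43, 1.95 and 11.3 in E14, P19 and 3T3, and for both Hist1 intervals together 2.51, 1.72 and 13.6. In the same order it was 2.43, 2.07 and 13.2 for Hist1 proximal alone, and 4.57, 5.52 and 33.4 for Hist2 alone. For Hist1 distal alone it was 2.61 in E14 and 1.28 in P19.

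Without any 1 library the percentile difference ranged from -22.8 to -16.0 and the log2 width ratio from -0.45 to -0.37. The exact p was then 0.0625, the smallest that 5 libraries allow. For Hist2 alone the differences were -8.75 and -0.12 (exact p = 0.3125 each), and for the best 50% of each list the log2 width ratio was -0.27 (exact p = 0.125). The percentile difference held its sign and its call under the 6 other alternatives. With equal lists, where E14 replicate 1 had no cluster peak and dropped out, the percentile difference was -7.82 (exact p = 0.4375) and the log2 width ratio turned to 0.064 (exact p = 0.9375).

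Leaving out 1 library moved the regions of 3T3 alone between 11 and 37, of E14 alone between 2 and 17, of P19 alone between 1 and 9, of E14 and P19 between 3 and 6, of E14 and 3T3 between 3 and 12, of P19 and 3T3 between 3 and 10, and of all lines between 4 and 6. In these runs the line left with 1 library kept all its peaks as regions, with no second library required. With the best 50% of each list the regions numbered 9 for 3T3 alone, 0 for E14 alone, 1 for E14 and P19, 0 for E14 and 3T3, 1 for P19 and 3T3, and 0 for all lines. With equal lists they numbered 31 for 3T3 alone and 0 for each of the other 5 combinations but P19 alone. With peaks of either library they numbered 13 for 3T3 alone, 7 for E14 and P19, 17 for E14 and 3T3, and 19 for all lines. Depth is unknown, so a peak missing from a list may be a site below detection.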
